A study of Mus musculus with 18 samples.

Results

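C57BL/6J and C3H/HeJ are the inbred mouse strains from which the BXH recombinant inbred strains were bred, and they were compared here through the open chromatin sites called in their livers. The peak lists of the strains were merged on the 19 autosomes into sites, where overlapping or touching peaks form 1 site. This gave 35927 sites, against 50775 sites in the union of the lists of all 7 inbred strains of the study. Of the 35927 sites, 22943 were called in both strains (63.9%, 95% exact interval 63.4 to 64.4), 6198 in C57BL/6J only (17.3%) and 6786 in C3H/HeJ only (18.9%).

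All animals were male mice kept on chow until 8 weeks of age and then on a high-fat, high-sucrose diet (HF/HS) for 8 weeks. Livers were taken from 2 mice of each of 9 strains, 18 samples in all. The other strains were DBA/2J, CBA/J, BALB/cJ, AKR/J and A/J and, from the BXH set, BXH19/TyJ and BXH2/TyJ. The authors combined the 2 mice of a strain into 1 peak list, so no spread between mice can be given and strains could not be tested. Every mouse ate the HF/HS diet, so the effect of the diet itself was not measured.

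In FAIRE-seq, crosslinked chromatin is sheared and extracted with phenol and chloroform, and DNA that carries few nucleosomes stays in the aqueous phase and is sequenced. Peaks mark promoters, enhancers and other regulatory DNA that is accessible in a tissue. A recombinant inbred strain is derived by inbreeding from a cross of a pair of parental strains, so each stretch of its genome is homozygous for one parent's DNA. A difference that lies in the DNA at a site is inherited with that stretch.

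The strength of a peak was taken as the percentile of its F-seq signal within its own list, from 0 for the weakest to 100 for the strongest peak, because each list had its own scale. A site was called strong at a percentile of 75 or more, promoter where it lay within 1000 bp of the start of a protein-coding transcript, and distal otherwise. A site was called multi-copy where the median of its 31-base words occurred at 2 or more places in the genome, and single-copy otherwise. Coordinates are those of mm9, and "upstream" is relative to the nearest start.

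Sequences at the centre of sites that carry the comparison are given first, each 150 bases long, 5′ to 3′ on the plus strand of mm9. This genome is C57BL/6J's own, so bases that differ in C3H/HeJ are not seen. The first set was called in C57BL/6J only. The F12 site lay 2463 bp upstream of the coagulation factor gene (chr13:55530684-55530833), the Ipo11 site covered the start of a nuclear import receptor gene (chr13:107726985-107727134), and the Rbp4 site lay in an intron of the gene for the plasma carrier of retinol (chr19:38194726-38194875). The Ank2 (chr3:126708192-126708341) and H2-K1 (chr17:34118242-34118391) sites were distal. Capitals mark a unit of 18 bases repeated 5 times at Rbp4, the word TTCNNNGAA of the STAT-type GAS element at Ank2 and the word of FOXA (TGTTTAC, here on the minus strand) at H2-K1.
F12: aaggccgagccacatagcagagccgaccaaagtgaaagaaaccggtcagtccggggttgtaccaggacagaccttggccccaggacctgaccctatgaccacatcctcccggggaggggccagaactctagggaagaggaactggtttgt
Ipo11: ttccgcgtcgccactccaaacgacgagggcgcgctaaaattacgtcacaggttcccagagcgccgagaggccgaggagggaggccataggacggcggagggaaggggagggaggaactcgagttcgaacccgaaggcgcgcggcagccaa
Rbp4: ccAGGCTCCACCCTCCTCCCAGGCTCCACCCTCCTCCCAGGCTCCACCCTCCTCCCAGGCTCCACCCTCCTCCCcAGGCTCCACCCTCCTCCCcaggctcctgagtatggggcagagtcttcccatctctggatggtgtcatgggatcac
Ank2: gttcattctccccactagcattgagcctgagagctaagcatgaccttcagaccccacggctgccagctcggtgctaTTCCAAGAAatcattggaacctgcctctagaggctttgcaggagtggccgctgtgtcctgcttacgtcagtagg
H2-K1: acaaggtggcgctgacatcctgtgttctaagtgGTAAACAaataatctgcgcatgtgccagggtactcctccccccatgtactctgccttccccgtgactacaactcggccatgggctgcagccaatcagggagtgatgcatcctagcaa

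The second set was called in C3H/HeJ only and holds the 2 strongest single-copy sites of that class, upstream of Adh7 (chr3:137875500-137875649) and Mycn (chr12:13002089-13002238), and the site upstream of a start of Pdcd4 (chr19:53973135-53973284), which C57BL/6J alone of the 9 lists lacked. Capitals mark the SP1 word GGGCGG at Adh7.
Adh7: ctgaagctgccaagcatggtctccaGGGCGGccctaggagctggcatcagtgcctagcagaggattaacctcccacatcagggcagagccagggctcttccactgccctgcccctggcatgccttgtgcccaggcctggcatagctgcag
Mycn: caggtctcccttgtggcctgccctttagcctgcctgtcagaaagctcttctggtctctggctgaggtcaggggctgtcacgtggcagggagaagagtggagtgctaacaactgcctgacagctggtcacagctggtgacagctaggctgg
Pdcd4: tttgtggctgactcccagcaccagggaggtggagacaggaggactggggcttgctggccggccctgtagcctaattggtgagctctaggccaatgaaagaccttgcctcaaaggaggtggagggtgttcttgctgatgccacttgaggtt

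The tissue label was checked against marker genes. A promoter site was called in both strains at 10 of 12 hepatocyte markers, and the other 2 had no promoter site in either list. None of 6 Kupffer cell and macrophage markers, 6 lymphocyte markers or 6 stellate cell markers had a promoter site in both strains, against 1 of 7 endothelial and 1 of 5 cholangiocyte markers. At 8 markers of other organs 1 promoter was called in both strains and 1 in C57BL/6J only. Over all autosomal protein-coding genes, 9810 had a promoter site in both strains, 308 in C57BL/6J only, 1083 in C3H/HeJ only and 10127 in neither. In whole liver, a site open in fewer cells and a site less open in every cell cannot be told apart.

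The lists were of like length, with 30598 peaks in C57BL/6J and 30370 in C3H/HeJ, but not of like shape. The median peak was 404 bp wide in C57BL/6J and 512 bp in C3H/HeJ, and the peaks covered 15.5 Mb and 19.4 Mb. Lists held no read counts, so depth is not known from them. The study's library table gives fewer filtered reads for both C3H/HeJ libraries than for either C57BL/6J library, and the part of depth in the results below was not tested. All intervals given cover counting error only, and a test between classes of sites compares these lists and not the strains, since neighbouring sites are not independent.

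Sites called in a single strain were mostly weak. The median percentile was 21.3 for C57BL/6J-only and 19.4 for C3H/HeJ-only sites, against 60.5 and 61.1 for shared sites in the same lists. Below a percentile of 25 lay 3530 of the C57BL/6J-only and 4186 of the C3H/HeJ-only sites. A peak of the other strain lay within 500 bp of 834 C57BL/6J-only and 751 C3H/HeJ-only sites without touching them.

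**Figure D1:**
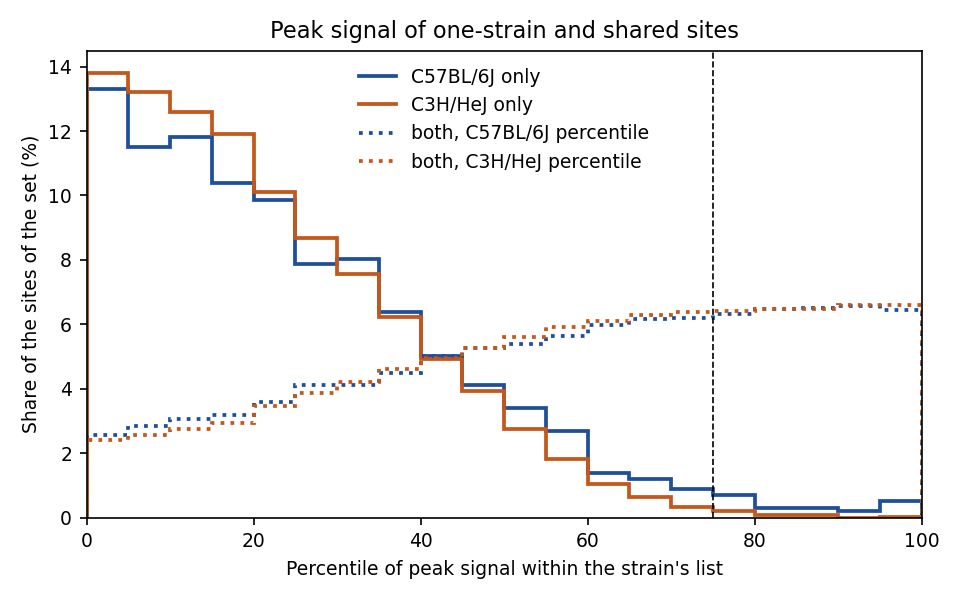
Share of sites (percent, vertical axis) in each 5-point step of the percentile of peak signal (horizontal axis), for sites called in C57BL/6J only, in C3H/HeJ only, and in both with the percentile in each list; the dashed line is the percentile of 75. Both single-strain lines fall from left to right and the C57BL/6J-only line rises again at the right edge.

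The classes differed in where they lay. Promoters made up 14.1% of C57BL/6J-only sites (874 of 6198, 95% exact interval 13.2 to 15.0) and 27.0% of C3H/HeJ-only sites (1835 of 6786, 26.0 to 28.1), with an odds ratio of 0.443 (adjusted exact p = 2.4e-74, Fisher's exact test, two-sided, adjusted by Benjamini-Hochberg over 9 shares). Of the shared sites 10328 of 22943 were at promoters (95% exact interval 44.4 to 45.7%). Mean GC content differed in the same direction between the single-strain classes, at 50.8% ± 4.35 (SD over sites) for C57BL/6J-only and 56.1% ± 6.26 for C3H/HeJ-only sites. For shared sites, which had the highest promoter share, mean GC was 55.8% ± 6.00. At the promoter sites alone it was 53.1% and 62.2% for the single-strain classes, and whether base composition or peak width accounts for part of the difference was not tested.

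C57BL/6J-only sites lay in repeated sequence more often. Of them 365 (5.89%, 5.32 to 6.50) were multi-copy, against 118 C3H/HeJ-only sites (1.74%, 1.44 to 2.08) and 0.741% of shared sites, and the odds ratio between the single-strain classes was 3.54 (adjusted exact p = 9.4e-37, same test). The copy number was counted in mm9, the genome of C57BL/6J, so copies private to C3H/HeJ were not seen.

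Short words of liver factors were counted in the central 300 bp of each site on both strands, as a description. The SP1 word GGGCGG was in 18.6% of C57BL/6J-only and 55.2% of C3H/HeJ-only promoter sites, beside 55.0% of all promoter sites. The ETS word CCGGAAG was in 5.38% and 7.08% of them, beside 13.6% of all promoter sites. TTCNNNGAA, the GAS element bound by STAT proteins, was in 11.2% of C57BL/6J-only and 4.31% of C3H/HeJ-only promoter sites (all, 5.82%), and in 10.7% and 6.73% of distal sites (all, 8.79%). The C/EBP word TTGCNNAA was in 18.7% and 13.4% of distal sites (all, 15.6%). The HNF4A word CAAAGTCCA was in 2.35% and 1.72% of distal sites and the FOXA word TGTTTAC in 5.95% and 5.84%. The GC-rich words were thus rarer and the AT-rich words of STAT and C/EBP factors more frequent in C57BL/6J-only sites, along with their lower GC content.

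Strong single-strain sites were few. Of the C57BL/6J-only sites 127 reached a percentile of 75, and of the C3H/HeJ-only sites 27. The weakest strong C57BL/6J-only site stood at 75.1 (Gm5819) and the next below at 74.9 (Atp6v0e, a proton pump subunit), and on the C3H/HeJ side the sites at the limit were Mtrr at 75.3 and Synj2 just under it. Ranking peaks by signal per base in place of signal gave 1759 and 210 strong sites, so both counts depend on how width enters, and the C57BL/6J-only count was the higher either way.

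The strong C57BL/6J-only sites were 32 promoter sites of 23 genes (0.108% of 21281 autosomal protein-coding genes) and 95 distal sites nearest to 70 genes (0.329%). Over single-copy sites alone they belonged to 11 and 44 genes. The strong C3H/HeJ-only sites were 1 promoter site of 1 gene (0.00470%) and 26 distal sites nearest to 24 genes (0.113%). A peak of the other strain lay within 500 bp of 14 strong C57BL/6J-only sites and of 0 strong C3H/HeJ-only sites. Promoters were 25.2% of the strong C57BL/6J-only sites and 3.70% of the strong C3H/HeJ-only sites (adjusted exact p = 0.0152, Fisher's exact test), the opposite order to that over all single-strain sites. Over the 52 and 23 strong sites that were single-copy and farther than 5 Mb from the chromosome's first base, a subset chosen after the data were seen, the shares were 19.2% and 4.35% (adjusted exact p = 0.201).

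Strong C57BL/6J-only promoter sites fell into a repeat group and a group of single-copy promoters. At the start of chromosome 9, 6 of them lay beside predicted genes in sequence present in 9 or more copies, with percentiles from 95.8 to 99.9 (Gm10720, Gm10106, Gm11167, Gm17535 and 2 at Gm10715). On chromosome 10, Gm10807 had a percentile of 95.2. Sfi1, which encodes a centrin-binding protein of the centrosome, had promoter sites at 97.8 and 96.7 among the 10 highest of this class. Of the 19 single-copy promoter sites of this class, 10 lay beyond the first 5 Mb of a chromosome. The others were all at Sfi1.

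Ipo11, which encodes importin-11, a carrier that takes proteins into the nucleus, was the strongest single-copy promoter outside those clusters. Its site (chr13:107726815-107727226, exon) stood at 95.1 in C57BL/6J, 84.8 in BXH2/TyJ, 59.6 in A/J, 32.1 in AKR/J, 17.3 in BALB/cJ and 16.2 in BXH19/TyJ, and no peak was called in C3H/HeJ, CBA/J or DBA/2J. The nearest C3H/HeJ peak was 9494 bp away, so the promoter had no C3H/HeJ peak beside it.

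The other promoters named here were picked after their values were seen. Slc2a5, the fructose transporter, stood at 87.1 in C57BL/6J, 78.2 in BALB/cJ, 78.0 in DBA/2J, 65.3 in BXH2/TyJ and 50.9 in A/J, and a C3H/HeJ peak lay 392 bp from it. Mri1, an enzyme of the methionine salvage pathway, stood at 82.4 in C57BL/6J, 83.5 in BXH2/TyJ and 44.3 in A/J. Luzp1, a leucine zipper protein of the cytoskeleton, stood at 78.3, 86.2 and 46.5 in the same lists. For both Mri1 and Luzp1 those were the only lists with a peak, and BXH2/TyJ ranked above the C57BL/6J parent at both. The promoter of H2-Q6, a non-classical MHC class I gene, stood at 76.2 in C57BL/6J, 87.5 in DBA/2J and 81.9 in BXH19/TyJ, but its sequence was multi-copy and can share reads with its neighbours.

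The only strong C3H/HeJ-only promoter was that of Pde6h (chr6:136903220-136903683, intron), which encodes a subunit of the phosphodiesterase of cone photoreceptors. It stood at 78.0 in C3H/HeJ, 82.0 in CBA/J, 77.7 in DBA/2J, 76.6 in AKR/J, 49.6 in A/J and 46.2 in BALB/cJ. C57BL/6J and both BXH strains had no peak there, so that C57BL/6J was the only inbred strain of the 7 without it.

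Distal C57BL/6J-only sites that were single-copy and beyond the first 5 Mb of a chromosome were led by F12. Within the first 5 Mb, single-copy distal sites ranked higher at Sfi1 (up to 99.6) and near Scaf8 (97.8). F12 encodes coagulation factor XII, a liver-made protease that starts the contact pathway. Its site (chr13:55530617-55530917, intergenic) stood at 95.9 in C57BL/6J, 94.0 in AKR/J, 83.6 in BXH2/TyJ, 83.1 in DBA/2J and between the AKR/J and BXH2/TyJ values in BXH19/TyJ, with no peak in C3H/HeJ, CBA/J, A/J or BALB/cJ. Every list that had a peak thus ranked it above 75, and the other lists had none. In Ank2, the gene for a membrane-cytoskeleton adaptor, an intronic site (chr3:126707845-126708531) stood at 95.1 in C57BL/6J, 85.5 in BXH19/TyJ, 79.0 in AKR/J and 73.4 in BXH2/TyJ, and in no other list.

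Of the 127 strong C57BL/6J-only sites 20 had a peak in no other inbred list and 17 in 1 other. Among them, with distal sites chosen after their values were seen, the Rbp4 intron site (chr19:38194328-38194976) stood at 93.8 in C57BL/6J with no peak in any of the other 8 lists, BXH strains included. An intronic site of Tbc1d1, a Rab GTPase activator in glucose transporter traffic, was likewise found only in C57BL/6J, at 76.6, and a C3H/HeJ peak lay 395 bp from it. The site in Hsd11b1, whose enzyme regenerates active glucocorticoid in liver, stood at 88.4 in C57BL/6J, 68.0 in BXH2/TyJ and 12.4 in BALB/cJ. Near Pisd, which makes phosphatidylethanolamine in mitochondria, a site stood at 92.1 in C57BL/6J and 59.7 in BXH2/TyJ only. At these sites BXH2/TyJ, where it had a peak, ranked below its C57BL/6J parent.

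H2-K1, a classical MHC class I gene that presents peptides to T cells, was the nearest gene of 2 strong distal sites. They lay 15.4 and 17.1 kb from its start (chr17:34117940-34118726 and chr17:34116603-34116999). The first stood at 92.0 in C57BL/6J and 87.9 in BXH19/TyJ, and in no other list. The second stood at 80.9 and 54.3 in those lists and at 15.1 in DBA/2J, and a C3H/HeJ peak lay 474 bp from it. BXH19/TyJ thus carried both sites and BXH2/TyJ neither, and the H2-Q6 promoter on the same chromosome showed the same split.

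Strong distal C3H/HeJ-only sites were shared widely with other strains. Tfpi, the inhibitor of tissue factor that restrains clotting, was nearest to the strongest one (29.4 kb upstream), at 99.8 in C3H/HeJ, 83.0 in BXH19/TyJ and 72.2 in CBA/J, but its sequence was multi-copy with a median of 94 genomic places. Adh7, an alcohol dehydrogenase that also oxidises retinol, had a single-copy site 4995 bp upstream (chr3:137875369-137875792). It stood at 89.6 in C3H/HeJ, 88.3 in BALB/cJ, 81.9 in AKR/J, 81.5 in CBA/J, 72.0 in DBA/2J and 63.6 in A/J, with no peak in C57BL/6J, BXH2/TyJ or BXH19/TyJ. Both recombinant strains therefore had the C57BL/6J state there.

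Mycn, a MYC family transcription factor, was nearest to a site 53.2 kb upstream that stood at 88.2 in C3H/HeJ, 85.1 in CBA/J, 78.1 in DBA/2J, 77.9 in BXH19/TyJ, 74.6 in AKR/J and 16.8 in BALB/cJ. Agtrap, which binds the angiotensin receptor, had one 12.6 kb from its start at 86.0 in C3H/HeJ and from 63.1 to 72.7 in AKR/J, CBA/J, DBA/2J and BXH19/TyJ. Mycn and Agtrap were alike in having a BXH19/TyJ peak and no BXH2/TyJ peak. The site near Slc35c1, the Golgi GDP-fucose transporter, stood at 85.6 in C3H/HeJ, 80.1 in AKR/J and 57.3 in A/J alone. The site 4441 bp upstream of a start of Pdcd4, an inhibitor of translation, stood at 83.3 in C3H/HeJ and from 42.7 to 73.9 in all 7 other lists, so that C57BL/6J was the single list of 9 without it. The site 92.1 kb from Mdm1 stood at 83.1 in C3H/HeJ, and from 19.5 to 80.4 in all lists but those of C57BL/6J and BXH2/TyJ. Sites nearest to Rhou (88.1 and 85.6) and Disc1 (86.5) were multi-copy.

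**Figure D2:**
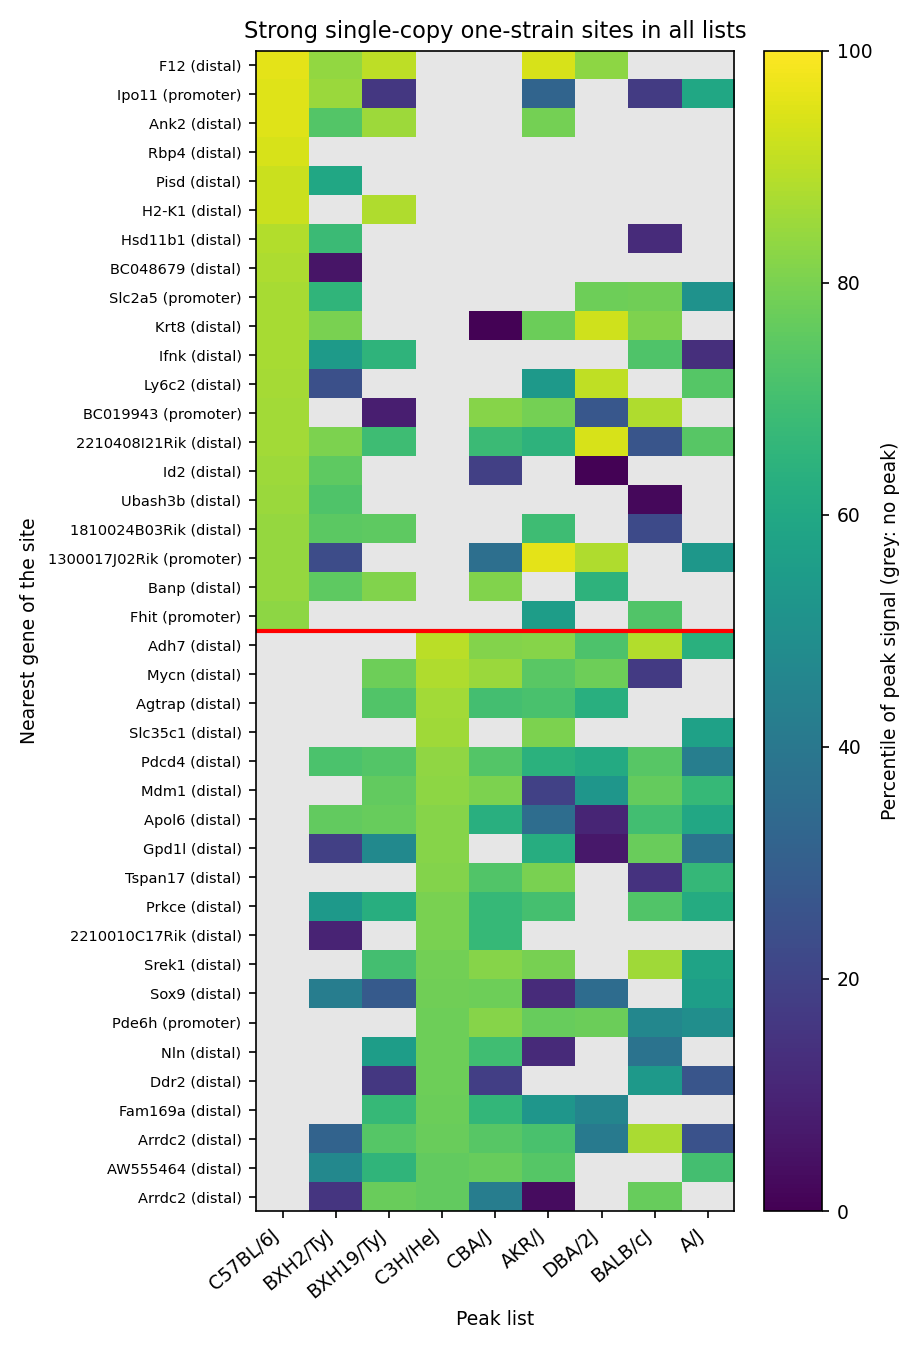
Percentile of peak signal (colour, 0 to 100; grey, no peak) in each of the 9 lists (horizontal axis) at the 20 highest single-copy C57BL/6J-only sites beyond 5 Mb (above the red line) and the 20 highest single-copy C3H/HeJ-only sites (below it), each row named by its nearest gene. The upper block is mostly grey outside C57BL/6J and BXH2/TyJ, while in the lower block most cells of BXH19/TyJ, CBA/J and AKR/J are coloured.

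Strong C57BL/6J-only sites were clustered. The densest 1 Mb held 28 of them at Sfi1 over 71.3 kb near the start of chromosome 11, with percentiles from 75.4 to 99.6. All 28 had a peak in BXH2/TyJ and DBA/2J, 27 in AKR/J, 15 in A/J, 10 in CBA/J, 2 in BXH19/TyJ and 1 in BALB/cJ. By the 31-base words these sites were single-copy, yet sequences alike to several of them occurred on other chromosomes at 90% identity. The same 1 Mb also held 38 shared and 2 C3H/HeJ-only sites. C3H/HeJ peaks lay 215, 269 and 328 bp from strong C57BL/6J-only sites at Sfi1. The next window, on chromosome 9, held 7 multi-copy sites that all had a peak in BXH2/TyJ, BXH19/TyJ, DBA/2J, CBA/J, AKR/J and A/J, and 6 in BALB/cJ. C3H/HeJ lacked them by the definition of the class, but the same window held 12 shared and 3 C3H/HeJ-only sites. C3H/HeJ peaks lay from 135 to 459 bp from the sites at Gm10720, Gm17535 and Gm10716 and from a site at Gm10715.

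Smaller groups had other strain patterns. At Sp110 and Sp140, nuclear body genes induced by interferon, 4 multi-copy sites on chromosome 1 (75.7 to 85.5) had peaks in BXH2/TyJ and DBA/2J, and none in BXH19/TyJ, CBA/J, BALB/cJ or AKR/J. Beside 9230019H11Rik on chromosome 10, 4 multi-copy sites (82.4 to 99.5) had no peak in any of the 7 other lists. The densest C3H/HeJ-only windows held 2 sites each. Those at Nln, a neuropeptidase gene, and Srek1, a splicing regulator gene, on chromosome 13 had peaks in BXH19/TyJ and none in BXH2/TyJ. Those at Arrdc2, an arrestin-domain gene on chromosome 8, had peaks in both recombinant strains. Those at Rhou, a small GTPase gene, were multi-copy and had peaks in BXH2/TyJ (15.7 and 14.0) and not in BXH19/TyJ, and ranked higher in DBA/2J (99.7 and 99.3) and AKR/J (81.6 and 85.7).

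Grouping the single-strain sites by sequence, linked at 90% identity over 150 bp, showed families scattered over many chromosomes. The largest had 28 members on 15 chromosomes, all C57BL/6J-only, with a median of 5698 genomic places and a median percentile of 42.2. Of its members 24 had a peak in A/J and in DBA/2J, 19 in BXH2/TyJ, 14 in AKR/J, 6 in CBA/J, 5 in BXH19/TyJ and 0 in BALB/cJ, and 15 held the word TTCNNNGAA. The next had 27 members, all C57BL/6J-only, of which 27 had a peak in DBA/2J, 24 in A/J and 0 in BALB/cJ. A further family of 22 was the reverse, with 21 C3H/HeJ-only members, the Srek1 site among them. Families of 5 or more members held 2.07% of all C57BL/6J-only sites and 0.766% of all C3H/HeJ-only sites, and 23.6% of the strong C57BL/6J-only (30 of 127) and 7.41% of the strong C3H/HeJ-only sites (2 of 27). Of the families of this size 1 lay on a single chromosome. With pairs and other small groups included, the shares were 3.53% and 1.58% of all and 32.3% and 14.8% of strong sites.

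A member of the largest family lay 10.8 kb upstream of Ugt2b37, a glucuronosyltransferase that conjugates steroids and drugs (chr5:87694589-87694799). It stood at 57.2 in C57BL/6J, 83.1 in DBA/2J and 37.9 in A/J and had no peak in the other 6 lists. At Adi1, like Mri1 an enzyme of methionine salvage, the promoter was called in both strains, at 45.2 in C57BL/6J and 57.6 in C3H/HeJ. A C57BL/6J-only site 6.47 kb downstream of its start (chr12:29366569-29367054) stood at 68.6 in C57BL/6J and 60.3 in BXH2/TyJ, and a second one at 23.9 kb (chr12:29383970-29384250) at 55.8 and 57.7, with no peak in the other 7 lists at either. The first was multi-copy, a C3H/HeJ peak lay 277 bp from the second, and neither reached the percentile of 75. Other sites of Adi1 went other ways. A C57BL/6J-only site at 10.6 kb stood at 1.17 with no peak in any other list, a shared site at 23.1 kb stood at 28.1 in C57BL/6J and 79.0 in C3H/HeJ, and a C3H/HeJ-only site at 25.3 kb stood at 57.6 and was called in BXH2/TyJ at 6.67. BXH2/TyJ thus had the C57BL/6J state at 2 of these 4 single-strain sites. The central bases of the Ugt2b37 site (chr5:87694615-87694764) and of the farther Adi1 site (chr12:29384038-29384187) are shown with GAS and SP1 words in capitals.
Ugt2b37: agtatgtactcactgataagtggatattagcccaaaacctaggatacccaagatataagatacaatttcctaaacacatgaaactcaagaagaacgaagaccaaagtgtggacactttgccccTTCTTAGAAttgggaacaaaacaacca
Adi1: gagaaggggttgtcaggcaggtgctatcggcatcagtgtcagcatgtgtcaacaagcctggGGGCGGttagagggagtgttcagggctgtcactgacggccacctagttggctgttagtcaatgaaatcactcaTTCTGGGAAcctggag

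The loci of Enpp1, Mup19, Mup5, Suds3 and Lipc, also drawn or tested in the study, had no strong single-strain site. Near Enpp1, which hydrolyses extracellular nucleotides and dampens insulin receptor signalling, 3 C57BL/6J-only sites stood between 0.407 and 2.67. Mup19, a major urinary protein gene, was nearest to 1 C57BL/6J-only site and to a multi-copy C3H/HeJ-only site 9.37 kb upstream at 37.8. Mup5 was nearest to 3 C57BL/6J-only sites, of which 2 at this locus stood at 34.8 and 5.11. Suds3, a subunit of the SIN3 histone deacetylase complex, had a shared promoter site at 28.8 in C3H/HeJ with a C57BL/6J minus C3H/HeJ difference of -18.8, and C3H/HeJ-only sites at 55.4 and 30.6. Another shared site 743 bp upstream of Suds3 stood at 43.1 in C57BL/6J and 1.40 in C3H/HeJ, a difference of more than 25 points toward C57BL/6J. Lipc, hepatic lipase, had shared intronic sites at 78.0 and 64.5, 64.1 and 56.9, and 54.4 and 48.0 in C57BL/6J and C3H/HeJ in turn, all within 25 points.

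Calls in the lists that the merge did not use were then compared between the single-strain classes. Over all sites, C3H/HeJ-only sites were called more often than C57BL/6J-only sites in A/J (44.9% against 13.8%, odds ratio 0.196), BALB/cJ (53.9% against 35.5%, adjusted exact p = 4.9e-99, Fisher's exact test here and below) and CBA/J (53.5% against 39.7%, adjusted exact p = 5.5e-56). DBA/2J was the reverse, with 30.7% of C57BL/6J-only and 23.5% of C3H/HeJ-only sites (adjusted exact p = 4.8e-20). In AKR/J the shares were 36.0% and 37.8% (adjusted exact p = 0.0332), and this call was lost when peaks up to 500 bp apart were joined (odds ratio 0.988, adjusted exact p = 0.781) and over single-copy sites (0.942, adjusted exact p = 0.125). Median peak widths were 528, 542 and 501 bp in A/J, BALB/cJ and CBA/J and 376 and 417 bp in DBA/2J and AKR/J, which moved with these shares, and their part was not tested.

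Among strong sites the shares of C3H/HeJ-only sites were higher in all of these inbred lists, while those of C57BL/6J-only sites were higher in A/J, AKR/J and DBA/2J and lower in BALB/cJ and CBA/J than over all sites. CBA/J, which shares ancestry with C3H/HeJ, had a peak at 88.9% of the strong C3H/HeJ-only and 35.4% of the strong C57BL/6J-only sites (adjusted exact p = 2.4e-06). Over strong single-copy sites beyond the first 5 Mb the CBA/J shares were 91.3% and 28.8% (adjusted exact p = 4.7e-06). AKR/J had 88.9% and 55.9% (adjusted exact p = 0.00181) and BALB/cJ 66.7% and 25.2% (adjusted exact p = 3.1e-04). The A/J difference at strong sites, 66.7% and 45.7%, did not pass (adjusted exact p = 0.0646), nor did that of DBA/2J, 59.3% and 68.5% (adjusted exact p = 0.374). Over strong single-copy sites beyond the first 5 Mb the BALB/cJ shares were 73.9% and 46.2% (adjusted exact p = 0.0646). In that subset, chosen after the data were seen, the A/J shares were 69.6% and 32.7% and did pass (adjusted exact p = 0.0113). Those of AKR/J were 91.3% and 42.3% (adjusted exact p = 4.0e-04). Those of DBA/2J were 60.9% and 44.2% (adjusted exact p = 0.244). Of the strong C57BL/6J-only sites 20 of 127 had no peak in any other inbred list, and of the strong C3H/HeJ-only sites 0 of 27, which allows a share of up to 11.1% (3 counts of the total).

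**Figure D3:**
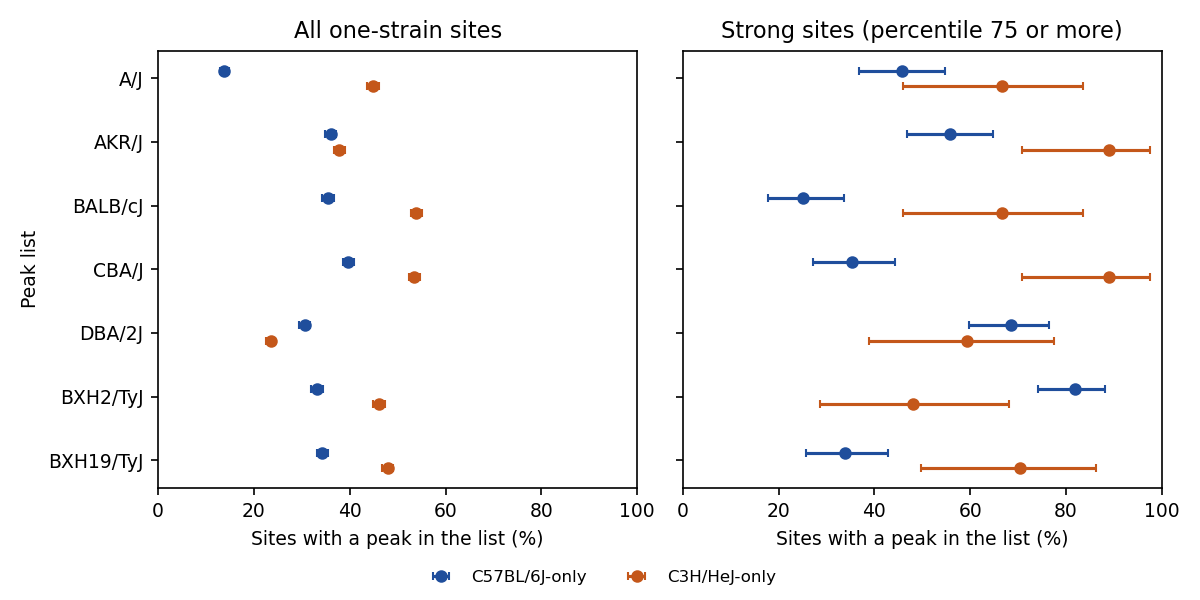
Share of C57BL/6J-only and C3H/HeJ-only sites (percent, horizontal axis) with a peak in each of the 7 lists not used in the merge (vertical axis), over all sites (left) and strong sites (right), with 95% exact intervals as bars. At left C3H/HeJ-only sites lie to the right in 6 of the 7 lists, and at right BXH2/TyJ and DBA/2J have the higher share at C57BL/6J-only sites.

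The recombinant strains parted at strong sites. BXH2/TyJ had a peak at 81.9% of strong C57BL/6J-only sites (104 of 127) and 48.1% of strong C3H/HeJ-only sites (13 of 27; adjusted exact p = 0.00181), whereas BXH19/TyJ had one at 33.9% and 70.4% (adjusted exact p = 0.00181). Over strong single-copy sites beyond the first 5 Mb the BXH2/TyJ shares were 73.1% and 47.8% (adjusted exact p = 0.0646). Those of BXH19/TyJ were 40.4% and 78.3% (adjusted exact p = 0.00860). Over all single-strain sites both recombinant lists were closer to C3H/HeJ, with 46.1% of C3H/HeJ-only and 33.2% of C57BL/6J-only sites in BXH2/TyJ (adjusted exact p = 6.4e-51) and 47.9% and 34.3% in BXH19/TyJ (adjusted exact p = 3.4e-55). Which alignment of the recombinant strains' reads, to mm9 or to the C3H/HeJ genome, gave the lists is not stated in the sources used here. The study's library table gives fewer filtered reads for both BXH19/TyJ libraries than for either BXH2/TyJ library. Depth thus had the same order in BXH19/TyJ and BXH2/TyJ as in C3H/HeJ and C57BL/6J, and its part was not tested.

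Site by site, the 82 strong single-copy C57BL/6J-only sites had a peak in both recombinant strains at 20, in BXH2/TyJ only at 48, in BXH19/TyJ only at 4 and in neither at 10. Beyond the first 5 Mb of each chromosome, which leaves out Sfi1, the counts were 17, 21, 4 and 10 of 52. The 23 strong single-copy C3H/HeJ-only sites had a peak in both at 10, in BXH19/TyJ only at 8, in BXH2/TyJ only at 1 and in neither at 4. A peak in BXH2/TyJ only was thus the largest group among C57BL/6J-only sites, and a peak in both the largest among C3H/HeJ-only sites, where calls in BXH19/TyJ only outnumbered those in BXH2/TyJ only.

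Calls in the recombinant strains were also counted by chromosome, over the 595 C57BL/6J-only and 459 C3H/HeJ-only single-copy sites at a percentile of 50 or more. A site was in the C57BL/6J state where a C57BL/6J-only site was called or a C3H/HeJ-only site was not. BXH2/TyJ was in that state at 46.2% of sites (95% exact interval 43.2 to 49.3), from 14.7% on chromosome 14 (4.95 to 31.1) to 66.2% on chromosome 1 (53.7 to 77.2). BXH19/TyJ was in it at 38.6% (35.7 to 41.6), from 23.5% on chromosome 18 to 73.5% on chromosome 3 (55.6 to 87.1). The order of the strains was not fixed, since on chromosome 1 BXH19/TyJ stood at 35.3%, and on chromosome 17 BXH2/TyJ at 20.8% (10 of 48 sites) and BXH19/TyJ higher (24 of 48). Sites on an inherited segment are not independent, so no test was made, and no genotypes of the recombinant strains were used.

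The strong sites of chromosome 13 had 1 state in BXH2/TyJ. Its 5 strong C3H/HeJ-only sites, nearest to Tspan17, Mtrr, Fam169a, Srek1 and Nln, had no peak in BXH2/TyJ, and 4 of them had one in BXH19/TyJ. Its 4 strong C57BL/6J-only sites, nearest to F12, Slc35d2, 2210408I21Rik and Ipo11, all had a peak in BXH2/TyJ. The states in BXH2/TyJ at the 9 sites were thus all those of C57BL/6J, while BXH19/TyJ was mixed. Over the 56 single-copy single-strain sites of chromosome 13 at a percentile of 50 or more, BXH2/TyJ was in the C57BL/6J state at 55.4% (95% exact interval 41.5 to 68.7), so the strong sites do not stand for the whole chromosome.

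At the 22943 shared sites the strains ranked peaks alike in the main. Spearman's correlation across sites was 0.789, a description over sites that share their libraries, and 11656 sites (50.8%) were within 10 points. The C57BL/6J percentile minus that of C3H/HeJ had a median of -0.947 points, and its middle range ran from -10.9 (25th percentile) to 8.39 (75th percentile). It was at least 25 points higher in C57BL/6J at 1996 sites (8.70%) and at least 25 points higher in C3H/HeJ at 2037 (8.88%). Those sites were nearest to 1642 and 1769 genes (7.72 and 8.31 percent of all). No replicate error is available for these differences. With signal per base the counts were 3227 and 5944.

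The 2 directions differed in place as the single-strain classes did. Promoters were 19.9% of sites higher in C57BL/6J (18.2 to 21.8), 39.8% of those higher in C3H/HeJ (37.7 to 42.0) and 48.2% of the others, and mean GC was 50.7%, 57.6% and 56.2%. Differences of 50 points or more were found at 258 sites higher in C57BL/6J and 175 higher in C3H/HeJ.

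**Figure D4:**
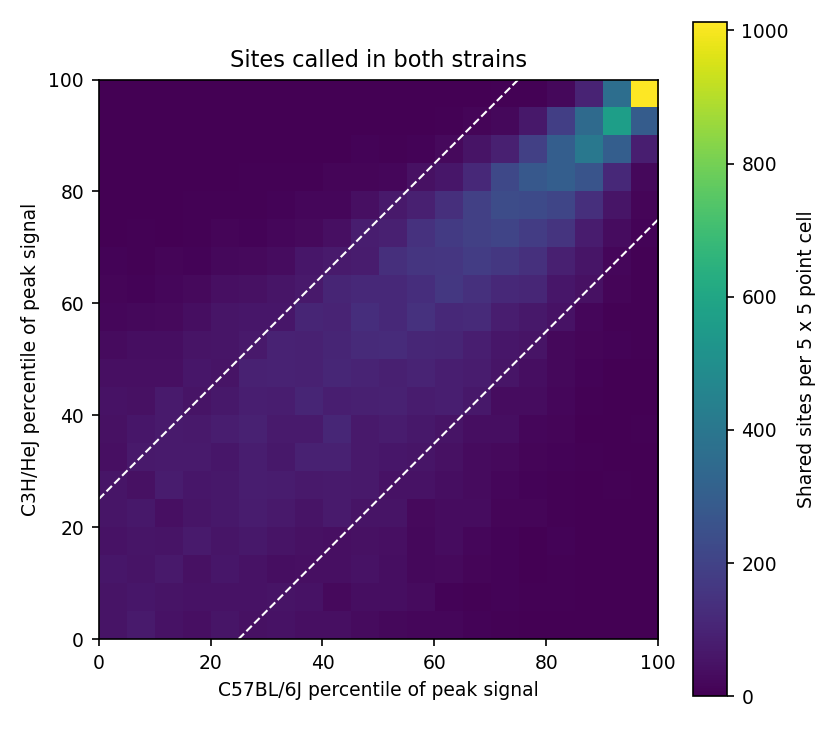
Number of shared sites (colour) in cells of 5 by 5 points, by the percentile of the site in C57BL/6J (horizontal axis) and C3H/HeJ (vertical axis); dashed lines lie 25 points from equality. Sites crowd at the top right, where 2241 stood at 90 or more in both lists, and the spread is widest in the lower and middle ranks.

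The largest differences toward C57BL/6J were at Sfi1 and at 3 multi-copy sites. Sfi1 had a site at 99.6 in C57BL/6J and 3.35 in C3H/HeJ, Gm10720 at 99.8 and 7.28, 4930467E23Rik at 94.5 and 2.84, and Gm10716 at 99.9 and 14.7. The Sfi1 site was single-copy by the 31-base words. The next were also single-copy. Ccdc46, a centrosomal coiled-coil gene, had an intronic site at 84.2 and 0.426, and the promoter of Irf2bp1, a corepressor of interferon regulatory factors, stood at 89.1 and 6.01. The promoter of Pttg1, securin, which holds sister chromatids together until anaphase, stood at 88.8 in C57BL/6J and 6.07 in C3H/HeJ, with 6.92 in BXH19/TyJ, 3.86 in A/J and no peak in the other 5 lists. Only C57BL/6J ranked the Pttg1 promoter high.

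Rnf24, a ubiquitin ligase gene, had an intronic site at 85.8 in C57BL/6J and 4.24 in C3H/HeJ, with 68.5 in BXH2/TyJ and from 9.16 to 15.7 in the other lists that called it. Anxa6, a calcium-dependent membrane binder, had a site at 79.6 and 0.965. BXH2/TyJ was thus the list nearest to C57BL/6J at Rnf24.

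The largest differences toward C3H/HeJ were all distal. The site nearest to Rrm2, the small subunit of ribonucleotide reductase, stood at 0.614 in C57BL/6J and 88.9 in C3H/HeJ, with 67.8 in BXH19/TyJ, no peak in BXH2/TyJ and from 27.4 to 65.9 in the other inbred lists. Sites nearest to Sncb, Rfc2, a subunit of the clamp loader of replication, Iqsec1 and Etv6, an ETS repressor, stood at 0.614, 2.32, 8.34 and 2.16 in C57BL/6J and at 78.2, 79.4, 83.6 and 73.5 in C3H/HeJ. An intronic site of Nr1i2, which encodes the xenobiotic receptor PXR, stood at 6.91 and 76.2, with 74.4 in BXH19/TyJ and no peak in BXH2/TyJ. Rrm2 and Nr1i2 thus had the C3H/HeJ state in BXH19/TyJ and not in BXH2/TyJ. Sites nearest to Cd59a, a complement inhibitor, Rps2-ps6, Tac4 and Rhd, a blood group antigen gene, stood at 14.9, 9.25, 0.0556 and 20.6 in C57BL/6J and at 86.2, 79.3, 70.0 and 89.8 in C3H/HeJ.

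Where another list had a peak at these sites, it was placed by whether its percentile was nearer to that of C57BL/6J or of C3H/HeJ. At sites higher in C57BL/6J, the share nearer to C57BL/6J was 35.6% of 1580 in BXH2/TyJ, 39.7% of 1779 in BXH19/TyJ and 53.5% of 1841 in CBA/J. At sites higher in C3H/HeJ it was 35.7% of 1792, 27.1% of 1900 and 24.5% of 1944. Sites without a peak in the list were left out. BXH2/TyJ thus had nearly the same share nearer to C57BL/6J in both sets of sites. In BXH19/TyJ and CBA/J the share was lower where C3H/HeJ was higher. The share fell likewise in A/J, AKR/J and BALB/cJ, so the drop was not particular to BXH19/TyJ and CBA/J. DBA/2J had 52.5% and 54.3%. A/J had a peak at only 525 of the 1996 sites higher in C57BL/6J, against 1509 of the 2037 higher in C3H/HeJ.

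Lists of liver genes showed where these differences fell by function. The lists were chosen with earlier results of these data known, and counts are given beside those over all genes, with no test. A C57BL/6J-only site was nearest to 19.1% of all genes and a C3H/HeJ-only site to 21.7%. Among hepatocyte markers it was 11 and 2 of 12, among coagulation genes 14 and 7 of 24, among conjugation enzymes 13 and 3 of 35 and among cytochromes P450 15 and 10 of 42. The lists of lipoprotein, fatty acid, cholesterol and glucose genes had like counts in both classes, as with 22 and 24 of 42 for fatty acid and triglyceride synthesis. Weak sites made up nearly all of these, since strong single-strain sites were found only at F12 and Tfpi among coagulation genes, Mup9 (77.1, multi-copy) among major urinary proteins and H2-K1 and H2-Q6 among MHC and interferon genes.

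Among coagulation genes, a shared site at least 25 points higher in C57BL/6J was found at 8 of 24 genes, and one higher in C3H/HeJ at 1, beside 7.72% and 8.31% of all genes. All genes include those with no shared site, so shares by site are given as well. Of the 38 shared sites of coagulation genes 23.7% were higher in C57BL/6J and 5.26% in C3H/HeJ, beside 8.70% and 8.88% of all shared sites. The median difference over those 38 sites was 8.09 points, against -0.947 over all shared sites. Fgg, a fibrinogen chain, had a site at 63.4 in C57BL/6J and 1.27 in C3H/HeJ, and F5, factor V, one at 59.9 and 6.44. The promoters of Serpinc1, antithrombin, at 82.0 and 51.2, and of F2, prothrombin, at 48.4 and 11.5, differed the same way. The gene with sites higher in C3H/HeJ was Vwf, von Willebrand factor, which endothelial cells make, at 27.9 and 68.5 and at 3.95 and 46.6. These genes, and those of the other lists below, were named after their values were seen.

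Acute phase and complement genes had 6 genes higher in C57BL/6J and 1 in C3H/HeJ of 32, and a median difference of 6.61 points over 52 sites. The promoter of Lbp, the lipopolysaccharide-binding protein, stood at 92.1 in C57BL/6J and 51.9 in C3H/HeJ, and a site of Mbl1, a mannose-binding lectin, at 88.8 and 51.4. A site 3000 bp upstream of Hpx, the haem carrier hemopexin, stood at 87.3 and 59.7. The exception was Hp, haptoglobin, with a site at 13.1 and 49.8.

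Cytochromes P450 had 8 genes higher in C57BL/6J and 3 in C3H/HeJ of 42, with a median of 8.18 points over 43 sites. The promoter of Cyp2d10 stood at 79.4 in C57BL/6J and 23.1 in C3H/HeJ, and a site of Cyp2c70, which makes muricholic bile acids, at 76.9 and 24.3. Cyp1a2, an enzyme of caffeine and drug oxidation, had a site at 62.8 and 21.3. Cyp2u1 was the reverse at its promoter, with 64.3 and 89.7. Among conjugation enzymes Ugt1a1, the bilirubin conjugating enzyme, was the gene higher in C57BL/6J, at 99.5 and 70.4 for a site 1682 bp into the gene and 61.8 and 33.4 at the promoter, while Gstp1 was at 21.5 and 61.8. The median difference for conjugation enzymes was -0.227, close to that of all sites.

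Lipoprotein and lipid uptake genes had 10 genes higher in C57BL/6J and 5 in C3H/HeJ of 37, with a median of 1.60 points over 124 sites. A site of Abca1, the cholesterol exporter, stood at 69.9 and 7.28. Apoa5, an activator of triglyceride hydrolysis, had a site at 87.6 and 44.9 and Apoa2 a promoter site at 87.6 and 50.3. Scarb1, the receptor for high-density lipoprotein, had sites in both directions, at 1.83 and 62.8 at an intergenic site 41.6 kb from its start, 27.6 and 61.0 in an intron, and 65.6 and 36.1 at a promoter.

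For fatty acid and triglyceride synthesis the counts were 13 and 10 of 42, with a median of -0.988 over 134 sites. Promoters and distal sites went different ways here, with medians of -4.64 over 47 promoter sites and 1.25 over 87 distal sites, as they did over all genes (-2.04 and 0.801). A promoter of Srebf1, the master regulator of lipogenesis, stood at 47.7 and 86.5, and that of Pnpla3, a lipase of lipid droplets, at 64.4 and 91.6. Distal sites of Fads1 (88.8 and 48.3) and Pparg (87.3 and 53.6) and the promoter of Gpam, the first enzyme of glycerolipid synthesis (84.4 and 46.0), were higher in C57BL/6J. For oxidation and ketogenesis the counts were 9 and 7 of 38, with a site of Cpt1a, the gate of mitochondrial fatty acid entry, at 86.1 and 33.7 and one of Eci2 at 31.9 and 77.2.

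Glucose and insulin genes had 13 and 9 of 35, with a median of 4.80 over 91 distal and -2.77 over 48 promoter sites. Distal sites of Igf1 (74.1 and 33.8), Tat (84.4 and 49.4) and G6pc, the last enzyme of glucose release (71.1 and 30.5), were higher in C57BL/6J. Promoters of Irs1, the insulin receptor substrate (15.6 and 54.8), and Foxo1 (1.17 and 38.5) were higher in C3H/HeJ. Foxo1 stood from 58.7 to 96.7 in the other lists that called it, with no peak in DBA/2J, so C57BL/6J and C3H/HeJ were both low there.

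Hepatocyte factors and nuclear receptors were even, with 14 and 14 of 38 and a median of -0.430. Rxra, the common partner of nuclear receptors, had a distal site at 81.3 and 27.1 and a promoter site at 19.6 and 56.7. Cholesterol and bile acid genes had 6 and 4 of 33, among them the promoter of Sqle, squalene epoxidase, at 41.8 and 83.9. MHC and interferon genes had 3 and 2 of 45 and major urinary proteins 1 and 0 of 21, Mup7 at 70.1 and 35.2. Genes of transposon silencing had 3 higher in C57BL/6J and 6 in C3H/HeJ of 33 (9.09% and 18.2%, beside 7.72% and 8.31% of all genes). The median was -1.79 over 51 shared sites. Over the 36 at promoters it was -2.89, near the -2.04 of all promoter sites. In this list the promoters of Tet3 (8.20 and 51.4), Uhrf1 (7.10 and 45.8) and Dnmt3a (48.4 and 85.8), which act in DNA methylation, ranked higher in C3H/HeJ. The mean GC of the shared sites was 52.3% for coagulation genes, 51.6% for cytochromes P450 and 58.7% for transposon silencing, against 55.8% over all. GC below that of all sites was not particular to the lists higher in C57BL/6J. It was 53.9% for fatty acid and triglyceride synthesis and 53.7% for hepatocyte factors and nuclear receptors. The part of GC was not tested.

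**Figure D5:**
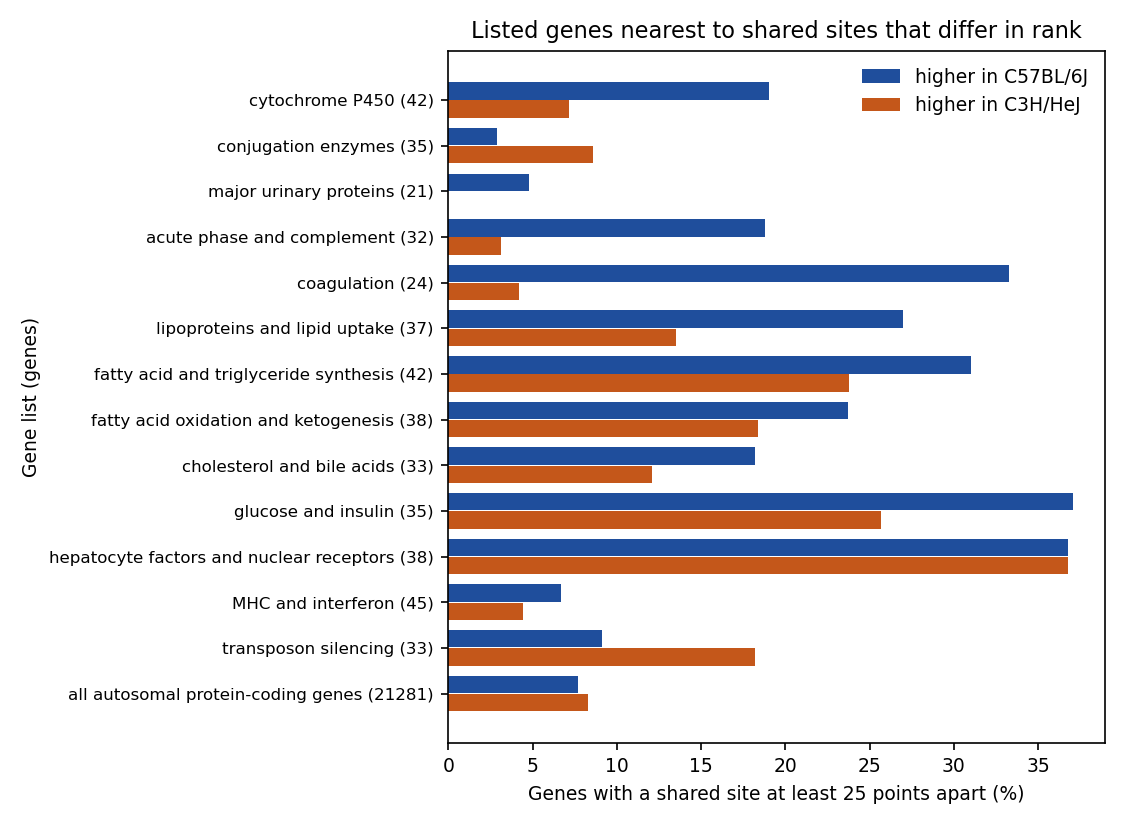
Share of the genes of each list (percent, horizontal axis; number of genes in brackets) that were nearest to a shared site ranked at least 25 points higher in C57BL/6J or in C3H/HeJ, with all 21281 genes at the bottom. The bars for coagulation, acute phase and P450 genes are longer for C57BL/6J, those for transposon silencing and conjugation enzymes longer for C3H/HeJ, and those for hepatocyte factors equal. For conjugation enzymes the C3H/HeJ bar (8.57%) is near that of all genes (8.31%).

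Markers of other cell types gave few shared sites. Cholangiocyte markers had 11, all nearest to 1 gene, Sox9, a marker of bile duct cells, so they do not stand for the list. Their median difference was -22.6 points, and 4 of them, all distal, were 25 points or more higher in C3H/HeJ. The 1 promoter site went the other way, at 22.3 points toward C57BL/6J. A strong C3H/HeJ-only site also lay 224 kb from the start of Sox9. Endothelial markers had 13 with a median of -3.48, lymphocyte markers 2 and stellate cell markers 1. Hepatocyte markers had 37 with a median of 5.23 points and 6 of 12 genes higher in C57BL/6J. Whether cell makeup differed between the livers was not tested.

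The authors' list of the most variable sites was chosen on these same libraries and is no independent evidence. It held 562 C57BL/6J-only sites (9.07%), 253 C3H/HeJ-only sites (3.73%) and 601 shared sites (2.62%), and 71 of 127 strong C57BL/6J-only (55.9%) and 20 of 27 strong C3H/HeJ-only sites (74.1%).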

How the data were processed

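FAIRE-seq reads of 2 livers per strain were aligned by the authors with bowtie to mm9 carrying the strain's SNPs, or for BXH strains to mm9 and the C3H/HeJ genome. Uniquely mapped, properly paired reads without PCR duplicates were kept, peaks were called with F-seq (feature length 400 bp) and the 2 mice were combined by IDR. The labels and methods state neither tool versions nor the IDR limit. The deposited peak score is the F-seq signal, on a scale of its own in each list, and no read counts come with the lists used, so peaks were compared by percentile within a list. The authors' variable and common sites came from read counts tested with DESeq. Reads with more than 1 location were lost before deposit, so repeats are seen in part.

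C57BL/6J and C3H/HeJ peaks were merged on the autosomes (touching peaks joined), and a site was given the highest percentile of its peaks and the nearest protein-coding transcript start of GENCODE M1. Genomic 31-base words were counted in mm9 and families were linked with blastn 2.17.0 (90% identity over 150 bp, e-value 1e-10). Shares of C57BL/6J-only and C3H/HeJ-only sites were compared by Fisher's exact test (scipy 1.17.1, two-sided), adjusted by Benjamini-Hochberg over 9 shares with a threshold of 0.05. Intervals are exact Clopper-Pearson at 95% and cover counting error only. Merging, distances, word counts and tests were checked on simulated data.

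Genes named were those of the 10 highest strong promoter and 10 highest strong distal sites of each class, the 10 shared sites with the largest difference in each direction, up to 4 genes per list with a strong single-strain site, the loci Adi1, Enpp1, Ugt2b37, Mup19, Mup5, Suds3 and Lipc, and the 3 densest 1 Mb windows. Other genes were named after their values were seen. An item the rule names is not reported here. The sites, lists and rules were chosen with earlier results of these data known. At most 2 symbols of a gene list were not found in the annotation.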

Additional observations from a re-analysis of the deposited data

How the results depend on the processing

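No paired analysis was possible because each list combines both mice of a strain, and for the same reason no replicate could be left out. Depth is unknown from the lists, and it limits weak calls most. Strong C57BL/6J-only and C3H/HeJ-only sites numbered 46 and 1 at a percentile of 90, 720 and 476 at 50, and 1759 and 210 by signal per base, and over single-copy sites the first count was 82. Genes with strong sites at a percentile of 90 numbered 8 (C57BL/6J-only promoter), 14 (C57BL/6J-only distal), 0 (C3H/HeJ-only promoter) and 1 (C3H/HeJ-only distal). Over single-copy sites the C57BL/6J-only gene counts were 11 (promoter) and 44 (distal), and with all annotated genes 4 genes had a strong C3H/HeJ-only promoter site. Shared sites 25 points apart numbered 3227 and 5944 by signal per base. With the 20000 strongest peaks of each list, 3880 and 4202 sites were single-strain.

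Of the shares, the promoter odds ratio turned from 0.443 to 8.76 over strong sites (adjusted exact p = 0.0152) and 5.24 over strong single-copy sites beyond 5 Mb (0.201), and that of BXH2/TyJ from 0.581 to 4.87 (0.00181) and 2.96 (0.0646). For DBA/2J it was 1.50 (0.374) over strong sites and 0.510 (0.244) beyond 5 Mb. Calls were lost for multi-copy sites (3.16, 0.0533) and A/J (0.420, 0.0646) over strong sites, for BALB/cJ beyond 5 Mb (0.303, 0.0646), and for AKR/J with peaks joined over 500 bp (0.988, 0.781) or over single-copy sites (0.942, 0.125). The strong subsets hold fewer sites, and other causes were not tested. Of 97 alternative values, 68 left the reading unchanged and 29 are those above. Among the 29, 18 counts moved, 6 shares lost their call and 5 odds ratios changed side. The single-copy, 5 Mb and 500 bp distance settings were chosen after seeing the data.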

Other observations

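The X and Y chromosomes were left out of the merge. On X, 245 sites were called in both strains, 51 in C57BL/6J only and 151 in C3H/HeJ only. On Y, 47 of the sites were C57BL/6J-only, 2 C3H/HeJ-only and 3 shared. Strong single-strain sites were C57BL/6J-only on both chromosomes, 7 on X and 15 on Y.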
